A study of Mus musculus with 10 samples.

Results

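The genes described here encode 7 nuclear receptors that bind, or are close relatives of receptors that bind, steroid hormones. They are the testicular receptors TR4 (Nr2c2) and TR2 (Nr2c1), the estrogen receptors alpha (Esr1) and beta (Esr2), the progesterone receptor (Pgr), the glucocorticoid receptor GR (Nr3c1) and the mineralocorticoid receptor MR (Nr3c2). They were taken by gene name from the 56884 genes of the deposited table, and all 7 were found. Hippocampal RNA had been sequenced, 1 library per mouse, from 10 female mice of the PS19 line (genotype label hTau), in which the mouse Prnp promoter drives human Tau carrying the P301S mutation. The mice were ovary-intact, all carried the transgene, and estrous stage was not given in the sources used here. From 6 months of age 5 of them received a subcutaneous implant of SILASTIC tubing holding 10 mm of powdered dihydrotestosterone (DHT), an androgen that aromatase cannot turn into estrogen, and 5 received the same tubing left empty (void). Hippocampi were collected after 12 weeks, at 9 to 9.5 months. Mice were housed by treatment group and the library positions of the void samples (4 to 11) all come before those of the DHT samples (18 to 23), so cage, library order and implant cannot be told apart.

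Nuclear receptors are transcription factors that read short DNA half-sites, usually as a pair. GR, MR and the progesterone receptor are held by heat shock protein chaperones until hormone binds, then act in the nucleus as dimers. Without hormone GR sits mostly in the cytoplasm, while estrogen receptors are mostly nuclear. TR2 and TR4 are orphan receptors, named so because no hormone was known for them when they were cloned, and they bind direct repeats of the half-site AGGTCA, often as a TR2/TR4 pair. In hippocampus MR and GR are both known for sensing corticosterone, MR with the higher affinity, and the estrogen and progesterone receptors for effects on neuronal excitability and spines.

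The study asked whether TR4 carries the response of microglia to DHT by acting on Trem2, a lipid-sensing receptor of microglia. To show the DNA nearest the start, the 250 bases before the start of Trem2 and of Nr2c2 are given, 5′ to 3′, from RefSeq (build GRCm38.p6). The study searched a longer stretch of the mouse Trem2 promoter with a motif matrix and chose its own ChIP primers. The window printed here is therefore not the region in which it reported TR4 binding. The Trem2 window lies on the plus strand at chr17:48346151-48346400 and the Nr2c2 window on the plus strand at chr6:92092183-92092432. Capitals mark any AGGTCA or AGAACA half-site on either strand, AGAACA being the half-site of the glucocorticoid, mineralocorticoid and progesterone receptors.
Trem2: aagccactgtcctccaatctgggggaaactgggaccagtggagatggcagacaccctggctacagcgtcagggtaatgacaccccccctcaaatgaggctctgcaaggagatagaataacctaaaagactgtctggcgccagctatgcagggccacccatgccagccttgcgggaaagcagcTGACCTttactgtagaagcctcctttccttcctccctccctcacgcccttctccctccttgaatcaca
Nr2c2: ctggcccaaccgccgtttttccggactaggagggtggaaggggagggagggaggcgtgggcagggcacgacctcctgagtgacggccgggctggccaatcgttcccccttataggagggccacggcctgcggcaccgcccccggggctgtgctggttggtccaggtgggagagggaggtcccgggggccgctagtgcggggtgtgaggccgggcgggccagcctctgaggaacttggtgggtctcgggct
The Trem2 window held 1 AGGTCA half-site, read on the minus strand, whose last printed base is at position -63 (the base before the start being -1), and no AGAACA. The Nr2c2 window held 0 half-sites of either kind. RefSeq promoter windows were matched for 6 of the 7 receptor genes (not for Nr3c1), and in all 6 genes the window before each listed start held 0 of both half-sites. Among 32851 windows of the same length in the table, 14.0% held AGGTCA and 16.1% held AGAACA. A direct repeat of AGGTCA with 1 base between was present in 11 windows (0.03%), and the Trem2 window was not one of them. These are matches of letters and no binding was measured. The libraries measure transcripts, and receptor protein was not analysed here.

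Total counts per mouse ranged from 27188854 to 47113661, and 17622 genes passed edgeR's expression filter. Levels are given as CPM, counts scaled to equal library size with TMM factors. Abundant markers of the dentate gyrus, CA1 and CA3 were well detected in every mouse (Prox1 from 118 to 211 CPM, Wfs1 from 104 to 181 CPM, Grik4 from 47.3 to 77.2 CPM). Other markers of these regions were lower, such as Tdo2 of the dentate gyrus (3.28 to 6.29 CPM) and Iyd of CA3 (2.20 to 5.66 CPM). Of 6 markers of the neighbouring striatum and thalamus, 1 was higher with DHT and 0 lower, and their summed level was 91.5 to 118 CPM with void and 113 to 172 CPM with DHT. Single markers of that list reached from 0.964 CPM (Adora2a, its lowest value) to 82.6 CPM (Ppp1r1b, its highest), and Ppp1r1b, a dopamine signalling gene, was the one that was higher, by 0.76 on the log2 scale (adjusted p = 0.0156, edgeR). Of 10 microglial markers 8 were higher with DHT and 0 lower, and their summed level was 523 to 635 CPM with void and 789 to 1265 CPM with DHT. Of 12 choroid plexus markers 3 were higher and 0 lower, and their summed level was 117 to 1896 CPM with void and 2151 to 3035 CPM with DHT. Both summed levels separate the groups fully, so tissue makeup and implant cannot be told apart in these libraries. In bulk tissue, fewer cells of a type and less RNA per cell also cannot be told apart.

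None of the 7 receptor genes passed the test. At a Benjamini-Hochberg adjusted p under 0.05 from edgeR's quasi-likelihood test, 0 were higher and 0 lower, where 5.22% of all genes tested were higher and 0.261% lower. With the added limit of a log2 fold change beyond 1 that the study used, the count was again 0, against 2.17% of all genes higher and 0.0227% lower. At an unadjusted p under 0.05, 1 receptor gene (Pgr) was counted, against 17.4% of all genes tested. DESeq2 called 0 at an adjusted p under 0.05, where it called 5.84% of the 20917 genes it tested higher and 1.07% lower. At an unadjusted p it counted 2, Nr2c2 and Pgr, against 16.5% of those genes. In no receptor gene were the groups fully apart, whereas they were in 6.27% of all genes tested. The log2 fold change was negative for 5 and positive for 2 receptor genes, with a median of -0.12, beside a median of 0.0094 over all genes tested.

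**Figure D1:**
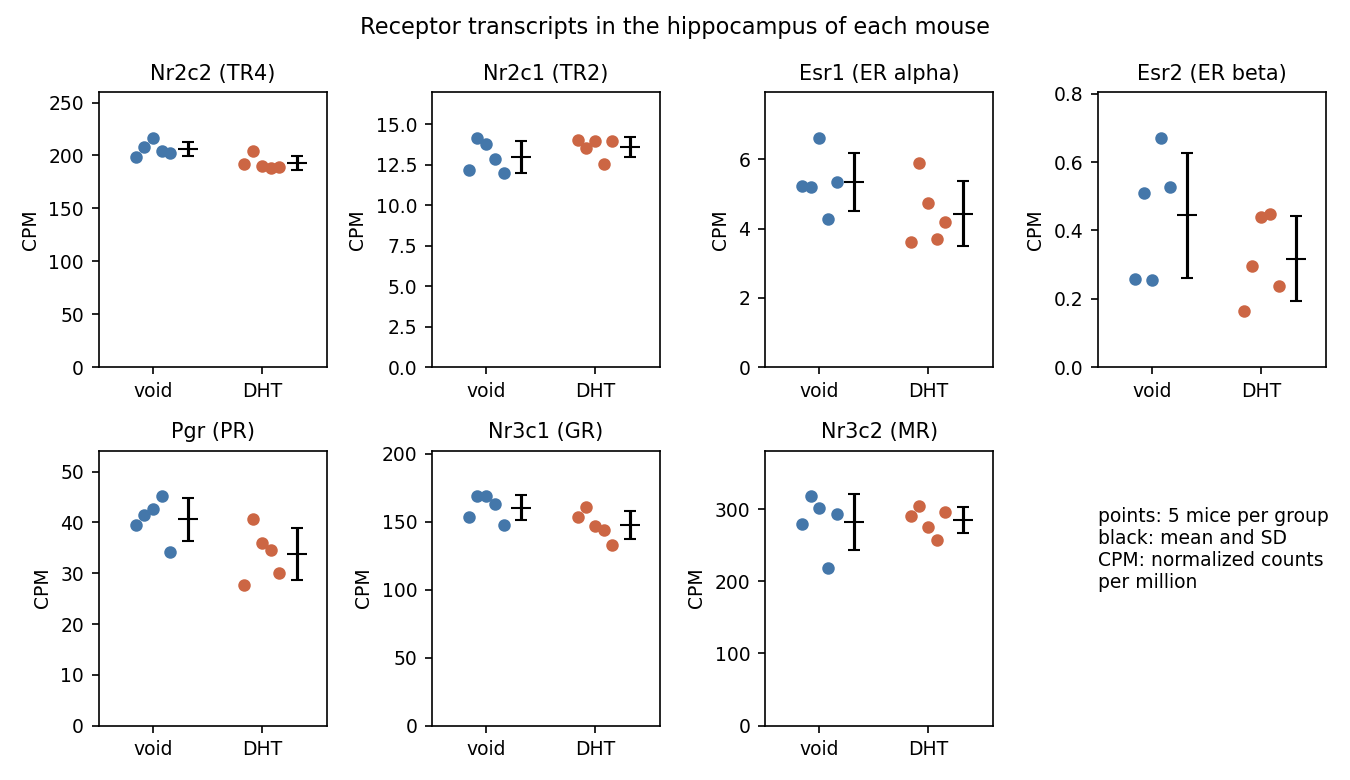
Normalized level in CPM (vertical axes, each starting at 0) of the 7 receptor transcripts in each of 5 void (blue) and 5 DHT (orange) mice, with the mean and SD in black beside the points. Void and DHT points overlap in every panel, and 4 of the 5 DHT points for Nr2c2 lie below all void points.

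Nr2c2 (ENSMUSG00000005893), which encodes TR4, had a slightly lower mean with DHT, by an amount that did not pass the test. In void-treated mice numbered 10, 11, 4, 5 and 9 it was at 199, 208, 217, 204 and 203 CPM. In DHT-treated mice numbered 1, 2, 3, 5 and 6 it was at 192, 204, 190, 189 and 189 CPM. Thus 4 DHT mice were below every void mouse, and the remaining one, DHT replicate 2, was within the void range. The means were 206 ± 6.89 CPM in void-treated and 193 ± 6.59 CPM in DHT-treated mice (SD, n = 5 each). That is a log2 fold change of -0.097 with a standard error of 0.047 (adjusted p = 0.316, edgeR's quasi-likelihood test). Its 95% interval ran from -0.20 to 0.0046, the lower end being 0.871-fold of the void level. With microglial markers as a covariate it was -0.018 with a standard error of 0.11, and with choroid plexus markers -0.10 with a standard error of 0.081. In GENCODE M21, 30.7% of the Nr2c2 exon bases also lie in exons of Mrps25 on the opposite strand, and whether the counting used strand is not given in the sources used here. Mrps25, a mitochondrial ribosomal protein gene, was at 32.4 ± 1.23 CPM in void-treated and 31.6 ± 1.14 CPM in DHT-treated mice (SD, n = 5 each).

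Nr2c1 (ENSMUSG00000005897) encodes TR2, the partner with which TR4 forms heterodimers, and its groups covered nearly the same range. In the void-treated mice, in the same order, it was at 12.2, 14.2, 13.8, 12.8 and 12.0 CPM. In the DHT-treated mice it was at 14.0, 13.5, 14.0, 12.6 and 14.0 CPM. All 5 DHT values lay within the void range. On the log2 scale the difference was 0.067 with a standard error of 0.075 (adjusted p = 0.732, edgeR), and its 95% interval ran from 0.936-fold to 1.17-fold. Adding choroid plexus markers as a covariate gave 0.14 with a standard error of 0.13, and adding microglial markers gave 0.14 with a standard error of 0.17. Between 330 and 668 reads per mouse stood behind these values, against 5380 to 10248 for Nr2c2.

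Esr1 (ENSMUSG00000019768), the estrogen receptor alpha gene, had low counts, 124 to 313 per mouse. It was at 5.24, 5.21, 6.62, 4.28 and 5.34 CPM in the void-treated mice. In the DHT-treated mice it was at 3.61, 5.90, 4.73, 3.71 and 4.20 CPM. The DHT values of replicates 1, 5 and 6 were below every void value, and that of replicate 2 was above all void values but one. DHT over void gave a log2 fold change of -0.27 with a standard error of 0.16 (adjusted p = 0.438, edgeR), with a 95% interval of 0.654-fold to 1.05-fold. Without DHT replicate 2 the log2 fold change was -0.39 (adjusted p = 0.148). With choroid plexus markers as a covariate the difference was -0.45 with a standard error of 0.25, and with microglial markers the sign turned, to 0.30 with a standard error of 0.30.

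Esr2 (ENSMUSG00000021055), the estrogen receptor beta gene, was at the edge of detection with 6 to 21 counts per mouse. It was at 0.258, 0.509, 0.254, 0.671 and 0.527 CPM in the void-treated mice and at 0.164, 0.296, 0.440, 0.449 and 0.238 CPM in the DHT-treated mice. The spread within a group was close to 40% of its mean (41.1% with void and 39.4% with DHT). A log2 fold change of -0.45 had a standard error of 0.35 (adjusted p = 0.591, edgeR), and its 95% interval, 0.430-fold to 1.24-fold, does not exclude a large fall at this depth and holds any rise to 1.24-fold. With choroid plexus markers as a covariate the Esr2 difference was -0.0036 with a standard error of 0.52, and with microglial markers 0.52 with a standard error of 0.83.

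Pgr (ENSMUSG00000031870), the progesterone receptor gene and a textbook estrogen-induced gene, had the lowest unadjusted p of the 7. Its levels were 39.5, 41.6, 42.7, 45.1 and 34.1 CPM in the void-treated mice. The DHT-treated mice were at 27.6, 40.6, 36.0, 34.5 and 30.0 CPM. DHT replicates 1 and 6 were below all void mice, and the other 3 were within the void range. Mean levels were 40.6 ± 4.16 CPM in void-treated and 33.7 ± 5.10 CPM in DHT-treated mice (SD, n = 5 each). The difference on the log2 scale was -0.27 with a standard error of 0.11 (adjusted p = 0.210 and unadjusted p = 0.0283 from edgeR's quasi-likelihood test). The 95% interval ran from 0.707-fold to 0.977-fold without allowance for the number of genes tested. It was -0.053 with a standard error of 0.16 with choroid plexus markers as a covariate, and 0.17 with a standard error of 0.20 with microglial markers. Over the 10 fits that each dropped 1 mouse, the difference lay between -0.34 and -0.23.

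Nr3c1 (ENSMUSG00000024431) encodes GR, the low-affinity corticosterone receptor, and was among the 3 most abundant of the 7 transcripts. It was at 153, 169, 169, 163 and 148 CPM in the void-treated mice and at 154, 161, 147, 144 and 133 CPM in the DHT-treated mice. DHT replicates 3, 5 and 6 were below the lowest void mouse and replicates 1 and 2 were within the void range. The log2 scale difference was -0.12 with a standard error of 0.063 (adjusted p = 0.384, edgeR), with a 95% interval of 0.839-fold to 1.01-fold. It was -0.047 with a standard error of 0.10 with choroid plexus markers as a covariate, and -0.083 with a standard error of 0.15 with microglial markers.

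Nr3c2 (ENSMUSG00000031618) encodes MR, the high-affinity corticosterone receptor, and its means were 282 ± 38.3 CPM in void-treated and 285 ± 18.6 CPM in DHT-treated mice (SD, n = 5 each). The void-treated mice were at 280, 318, 302, 218 and 293 CPM and the DHT-treated mice at 291, 304, 275, 257 and 296 CPM. Void replicate 5 was the lowest of all 10 mice, and every DHT value lay within the void range. On the log2 scale DHT was 0.013 above void with a standard error of 0.092 (adjusted p = 0.970, edgeR), with a 95% interval of 0.879-fold to 1.16-fold. With choroid plexus markers as a covariate this was -0.090 (standard error 0.15), and with microglial markers 0.061 (standard error 0.21). Its sign was negative without void replicate 5 (-0.066) and under several other settings.

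**Figure D2:**
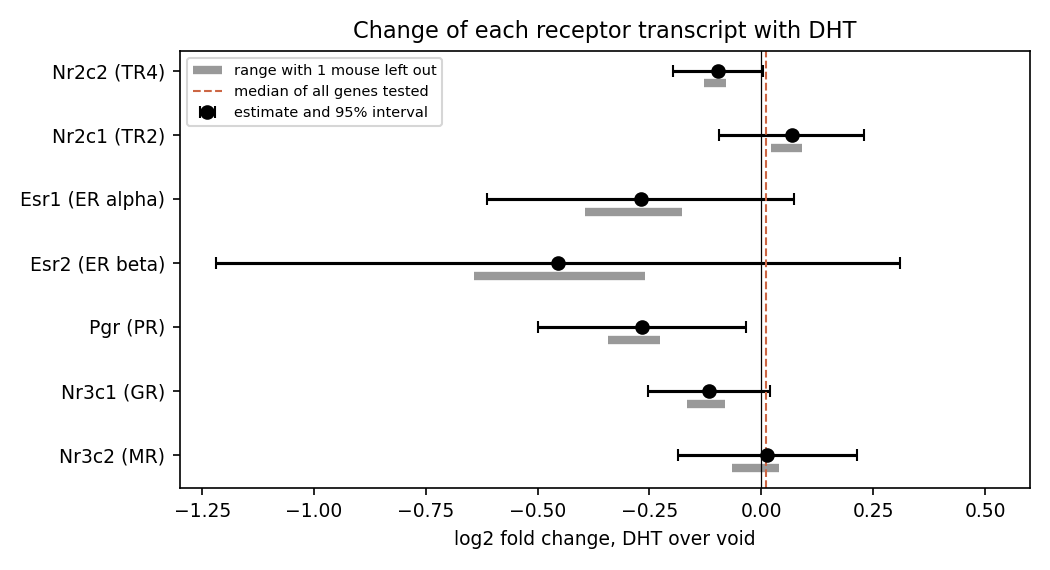
Log2 fold change of DHT over void (horizontal axis) for each receptor gene, with its 95% interval from edgeR's quasi-likelihood fit as black bars and the range over 10 fits that each leave out 1 mouse as grey bars. The interval of Pgr alone lies wholly below 0, before any adjustment for the number of genes tested, and that of Esr2 is the widest, from -1.22 to 0.31.

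Per kilobase of exon the receptors spanned a wide range. In void-treated mice Nr3c2 was at 43.6 ± 5.91 CPM per kilobase, Nr3c1 at 20.9 ± 1.22, Nr2c2 at 13.8 ± 0.461, Pgr at 4.75 ± 0.487, Nr2c1 at 2.82 ± 0.211, Esr1 at 0.391 ± 0.0610 and Esr2 at 0.132 ± 0.0542 (SD, n = 5 each). The order was the same in DHT-treated mice, and no neighbouring pair in it overlapped over the 10 mice. The length used was that of all annotated exons joined (GENCODE M21), which for Nr2c2 is 14935 bases against 7647 for its longest transcript. By longest transcript Nr2c2 came next after Nr3c2, at 26.9 ± 0.901 CPM per kilobase in void-treated mice, then Nr3c1 at 24.9 ± 1.45, and those neighbours then overlapped. The order of these genes as levels per length therefore turns on the gene model, and the places of the other 5 do not.

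**Figure D3:**
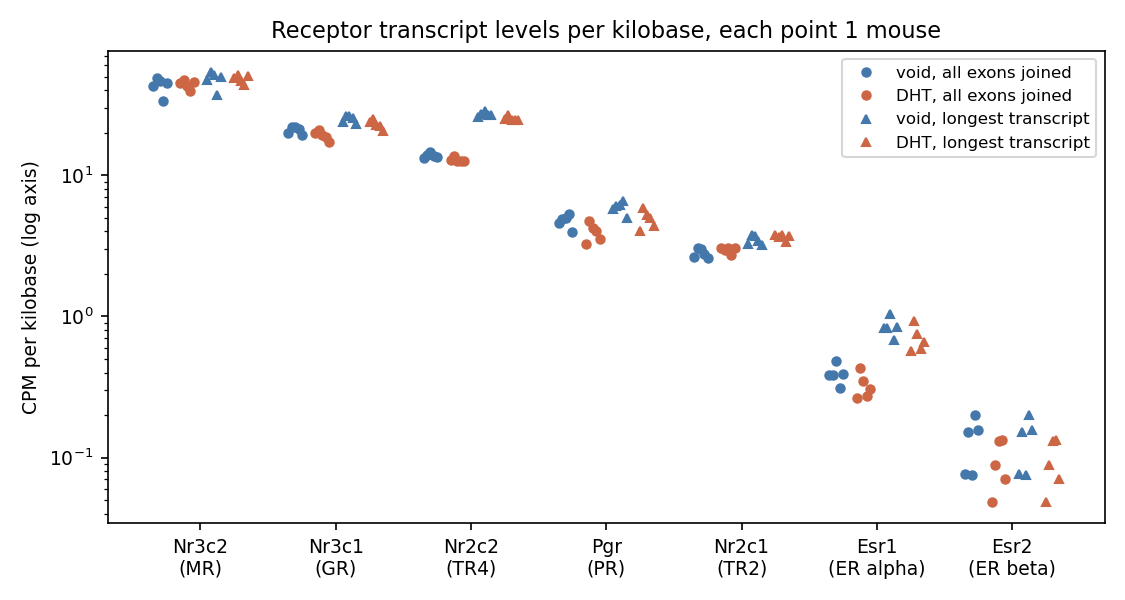
Level of each receptor transcript in CPM per kilobase (vertical axis, logarithmic), each point being 1 mouse, void in blue and DHT in orange, with circles for all exons joined and triangles for the longest transcript. Nr3c2 is highest and Esr2 lowest by both lengths, and Nr2c2 moves above Nr3c1 when the longest transcript is used.

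Receptors that work as a pair were compared as a ratio of counts within each mouse, in which library size drops out. TR4 to TR2 transcripts stood at a log2 ratio of 4.03, 3.88, 3.97, 3.99 and 4.08 in the void-treated mice numbered 10, 11, 4, 5 and 9. In the DHT-treated mice numbered 1, 2, 3, 5 and 6 the ratio was 3.77, 3.91, 3.76, 3.91 and 3.76. DHT replicates 1, 3 and 6 were below every void mouse, and DHT replicates 2 and 5 were above void replicate 11. The mean fell by 0.17 on the log2 scale, from 3.99 ± 0.075 to 3.82 ± 0.081 (SD, n = 5 each). The two-sided exact permutation test gave p = 0.0238, or 0.0476 after Benjamini-Hochberg adjustment over the 2 ratios compared. With each mouse left out, p lay between 0.0159 and 0.0476 in the same exact permutation test. This difference combines a lower mean of Nr2c2 with a higher mean of Nr2c1, neither of which passed the test alone, and other pairs of genes were not examined. Marker covariates were not fitted for the ratios, and summed microglial and choroid plexus markers separate the groups fully. In edgeR's test of single genes, 17.4% of all genes tested had an unadjusted p under 0.05. GR to MR transcripts stood at a log2 ratio of -0.81 ± 0.22 in void-treated and -0.95 ± 0.12 in DHT-treated mice (SD, n = 5 each). Their difference of -0.14 did not exceed the variation among mice (p = 0.325 by exact permutation, two-sided, and the same after adjustment over the 2 ratios). Without void replicate 5 it was -0.044 (p = 0.667 in the exact permutation test).

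**Figure D4:**
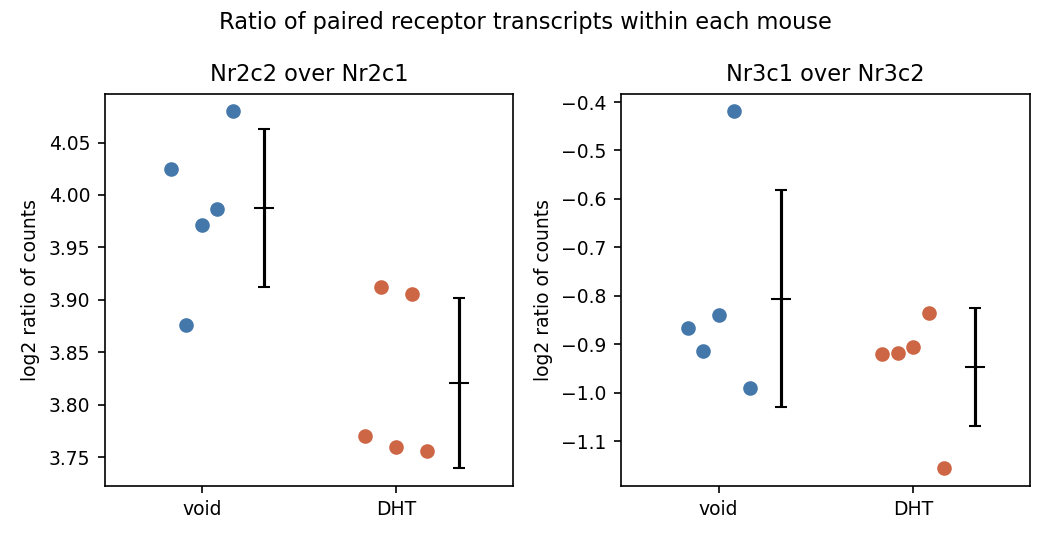
Log2 ratio of counts (vertical axes, which do not start at 0) of Nr2c2 over Nr2c1 and of Nr3c1 over Nr3c2 in each mouse, void in blue and DHT in orange, with mean and SD in black. DHT replicates 2 and 5 are the only DHT points above any void point on the left, and void replicate 5 stands above the other 4 void mice on the right.

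In both groups a few mice held the extremes of several receptors. With 7 genes and 5 mice per group some repeats must occur, so the list is only a description. Of the void-treated mice, replicate 4 was the highest for 3 genes (Nr2c2, Esr1 and Nr3c1) and replicate 9 the lowest for 3 (Nr2c1, Pgr and Nr3c1). Void replicate 5 was the highest for 2 (Esr2 and Pgr) and the lowest for 2 (Esr1 and Nr3c2). DHT replicate 2 was the highest of the 5 DHT-treated mice for 5 of the 7 genes, Nr2c2, Esr1, Pgr, Nr3c1 and Nr3c2. DHT replicate 1 was the lowest for 3, Esr1, Esr2 and Pgr, and the highest for Nr2c1. DHT replicate 5 was the lowest for 3 others, Nr2c2, Nr2c1 and Nr3c2, and the highest for Esr2. The summed level of the 10 microglial markers was 789 CPM in DHT replicate 2, the lowest of the DHT-treated mice, and 1265 CPM in DHT replicate 1, the highest of all mice, with 949 CPM in DHT replicate 5. The summed level of 8 inhibitory neuron markers was 661 CPM in DHT replicate 1 and between 830 and 957 CPM in the other DHT-treated mice (831 CPM in replicate 5). DHT replicate 1 was also the highest DHT-treated mouse for summed markers of astrocytes (8408 CPM), choroid plexus (3035 CPM) and dentate gyrus (393 CPM). The part of these cell types in the receptor values was not tested beyond the covariate fits given for each gene above, under which 0 of the 17622 genes were called with either marker list.

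Genes that work with the receptors were read in the same fit. The counts of each list below stand beside the shares over all genes tested. In edgeR these were 5.22% higher and 0.261% lower at an adjusted p under 0.05, and 17.4% at an unadjusted p under 0.05. Among 12 partners of TR2 and TR4, 1 rose, 0 fell and 11 did not pass the test. The one that rose was Kat2b, an acetyltransferase coactivator, from 31.4 ± 1.91 to 41.2 ± 6.37 CPM (SD, n = 5 each), for a fold change on the log2 scale of 0.39 with a standard error of 0.099 (adjusted p = 0.0403, edgeR). That call held in only 1 of 10 fits with a mouse left out, the one without DHT replicate 6, and the adjusted p reached 0.165. It also missed the limit with DESeq2's size factors in edgeR. The retinoid X receptors, common partners of nuclear receptors, had log2 fold changes of 0.042 for Rxra, 0.0062 for Rxrb and -0.26 for Rxrg (adjusted p = 0.885, 0.990 and 0.606). Nr2c2ap, which encodes a TR4-associated protein, had the next lowest p, its log2 fold change being 0.17 (adjusted p = 0.431, edgeR).

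Of 15 chaperones and co-chaperones of the steroid receptors, 0 passed the test with edgeR, 0 had an unadjusted p under 0.05 and DESeq2 called 0. Their median log2 fold change was -0.057, beside 0.0094 over all genes tested. Those with the lowest p were Stip1, which links Hsp70 to Hsp90, at -0.092 (adjusted p = 0.490), and Hspa8, a constitutive Hsp70, at -0.067 (adjusted p = 0.601). Of 20 coactivators, 0 passed with edgeR and 2 had an unadjusted p under 0.05, Ncoa7 at -0.21 on the log2 scale (adjusted p = 0.137) and Ppargc1a with -0.14 (adjusted p = 0.151), which DESeq2 called lower. Of 15 corepressors, 13 were tested, 0 passed with edgeR, 0 had an unadjusted p under 0.05 and DESeq2 called 0. The corepressors with the lowest p were Hdac1 at 0.16 (adjusted p = 0.419) and Ncor1 at -0.083 (adjusted p = 0.502).

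Among 10 receptors for steroids at the membrane, 9 were tested, 1 rose and 0 fell. Paqr5, a membrane progestin receptor, went from 3.26 ± 1.10 to 5.56 ± 0.965 CPM (SD, n = 5 each), for a fold change on the log2 scale of 0.77 with a standard error of 0.20 (adjusted p = 0.0464, edgeR). It passed in only 2 of 10 fits with a mouse left out, those without void replicate 9 and without DHT replicate 2, with an adjusted p of up to 0.139. Paqr8, another membrane progestin receptor, was at a log2 fold change of -0.24 (adjusted p = 0.233). Of 40 other nuclear receptors 31 were tested, 0 rose and 1 fell, and their median log2 fold change was -0.0040. At an unadjusted p under 0.05 in edgeR, 2 of them were higher and 3 lower, where 17.4% of all genes tested were counted in either direction. Thrb, a thyroid hormone receptor, fell by 0.26 on the log2 scale with a standard error of 0.062 (adjusted p = 0.0292, edgeR), from 78.3 ± 4.37 to 65.3 ± 4.32 CPM (SD, n = 5 each), with every DHT-treated mouse below every void-treated mouse. Without void replicate 10, 11 or 4, or DHT replicate 1 or 5, the adjusted p of Thrb was above the limit, at most 0.0803, with a log2 fold change between -0.30 and -0.25 over all 10 fits.

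Genes known to respond to glucocorticoids through GR were also read. Of 20 such genes, all tested, 1 rose and 0 fell, where 5.22% of all genes tested were higher and 0.261% lower. Their median log2 fold change was 0.064. Cdkn1a, which encodes the cell cycle inhibitor p21 and also answers to p53, rose from 7.14 ± 0.796 to 12.8 ± 2.38 CPM (SD, n = 5 each), for a fold change on the log2 scale of 0.84 with a standard error of 0.13 (adjusted p = 0.00761, edgeR), and it passed in all 10 fits with a mouse left out. Fkbp5, the GR-induced co-chaperone that lowers hormone binding, was at 61.7 ± 10.4 CPM in void-treated and 65.4 ± 3.94 CPM in DHT-treated mice (SD, n = 5 each), for a fold change on the log2 scale of 0.082 (adjusted p = 0.790, edgeR). Plin4, a lipid droplet protein gene, had the next lowest p, its log2 fold change being 0.61 (adjusted p = 0.197, edgeR). Tsc22d3, a glucocorticoid-induced leucine zipper gene, had nearly the same p and the other sign, -0.28 on the log2 scale (adjusted p = 0.200, edgeR). At an unadjusted p under 0.05, 2 genes of this list were higher and 1 lower.

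**Figure D5:**
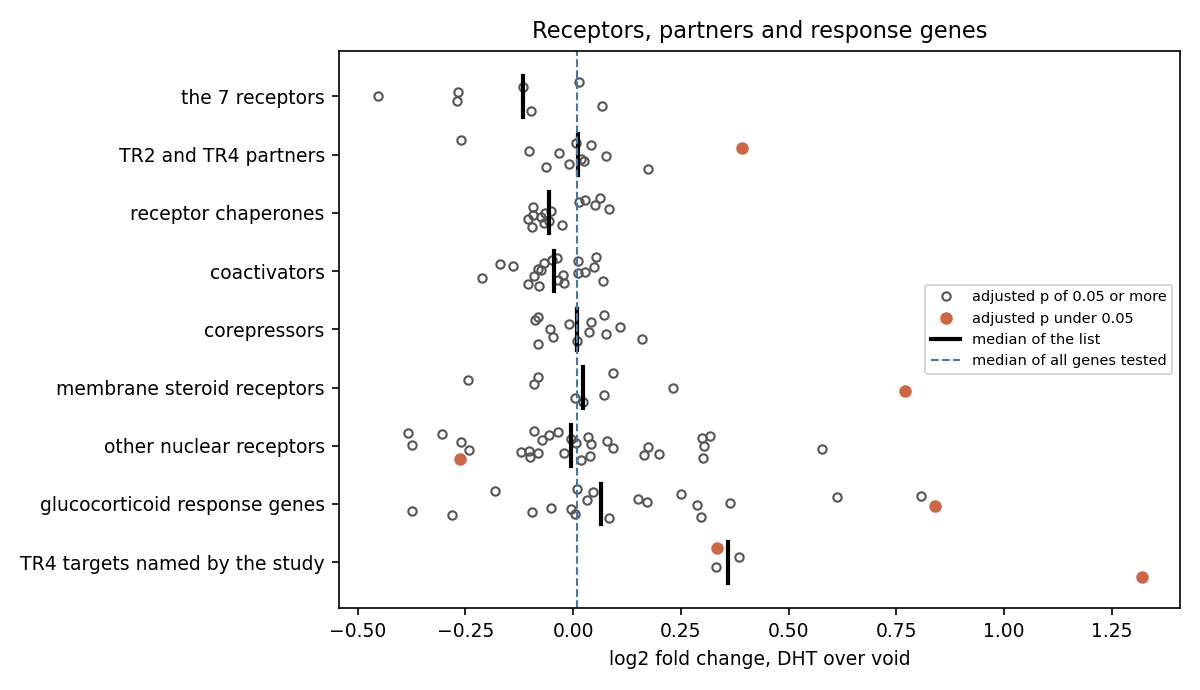
Log2 fold change of DHT over void (horizontal axis) for each tested gene of the receptors and of the lists of partners and response genes, with filled orange points for an adjusted p under 0.05 in edgeR's quasi-likelihood test, black bars for list medians and a dashed line for the median of all genes tested. The 7 receptors hold no filled point, and the filled points elsewhere are Kat2b, Paqr5, Thrb, Cdkn1a, Nfkb1 and Trem2.

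Trem2 and the 3 other genes that the study treats as TR4 targets were set beside the TR4 gene itself. Of these 4 genes 2 rose, 0 fell and 2 did not pass. The study took Rela, Apoe and Nfkb1 as examples of TR4 targets from earlier work, and showed them with counts from these same mice. Trem2 was among the genes it found raised in these data. The count is therefore not independent evidence of a direction. The Trem2 transcript was at 8.24 ± 1.53 CPM in void-treated and 20.5 ± 5.79 CPM in DHT-treated mice (SD, n = 5 each), for a fold change on the log2 scale of 1.32 (adjusted p = 0.00761, edgeR), beside -0.097 for Nr2c2 in the same mice. The study named TR4 as a candidate from motif and regulator searches on the genes raised by DHT in these same data. It reports more TR4 protein in cortex of DHT-treated mice. It also reports more TR4 mRNA with DHT in BV2 cells, a microglial line, that had been given medium from neurons with mutant Tau. Its other experiments included TR4 knockdown, TR4 overexpression, ChIP, a TREM2 promoter reporter and a thermal shift assay of TR4. Bulk hippocampal RNA differs from these experiments in measure, tissue or cell type and does not address them. DHT replicate 2 had the most Nr2c2 of the DHT-treated mice (204 CPM) and the least microglial marker RNA (789 CPM). DHT replicate 1 had the most microglial marker RNA (1265 CPM) and the next most Nr2c2 (192 CPM). A link between the 2 levels was not tested. Nfkb1, an NF-kB subunit gene, rose by 0.33 (adjusted p = 0.0117), and without DHT replicate 1 its adjusted p was 0.0564. Rela, the other main subunit gene, and Apoe, the lipid carrier gene, had log2 fold changes of 0.33 and 0.39 (adjusted p = 0.140 and 0.0802, edgeR), and DESeq2 called Apoe as well.

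For each receptor gene, the 2 genes most like it over the 10 libraries were named by Pearson correlation of log2 CPM. They were Zfp11 and Lrrn3 for Nr2c2 (0.967 and 0.965), Wdr38 and Gm10516 for Nr2c1 (0.884 and 0.848), Cdh11 and Zdbf2 for Esr1 (0.959 and 0.954) and Gm28578 and Rab3b for Esr2 (0.927 and 0.925). For Pgr they were Elac1 and Rit2 (0.969 and 0.968), for Nr3c1 Magi3 and Pafah1b1 (0.975 and 0.974) and for Nr3c2 Slc35f3 and Tmem131 (0.939 and 0.934). These are the highest correlations among all genes compared, over 10 libraries that share normalization and tissue, and they are given only as a description. None of the 14 genes passed the test between implants with edgeR, the lowest adjusted p being 0.111 for Lrrn3.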

How the data were processed

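Bulk RNA-seq of hippocampus was measured in 10 female P301S mice, 5 void and 5 DHT, grouped by sample title. The authors deposited raw counts per gene. Reads had been trimmed with HTStream and aligned with STAR 2.7.10b, to mm10 in the paper's methods and to mm39 (GRCm39) in the submitters' processing notes. The annotation, counter and strand setting are not given in the sources used here. The identifiers carry other version numbers than GENCODE M21 (0.1% shared), so that release, on GRCm38, was used for names (91.3% of identifiers matched), exon lengths and overlaps, and only RefSeq promoter windows carry coordinates.

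Counts were tested in R 4.3.3 with edgeR 4.0.16 (TMM, filterByExpr, quasi-likelihood) over 17622 genes, with Benjamini-Hochberg adjustment and calls at an adjusted p under 0.05. Standard errors were taken as the absolute log2 fold change over the root of the F statistic. As an alternative, DESeq2 1.42.0 (named in the submitters' notes) was run. Ratios used a pseudocount of 0.5 counts and exact permutation tests (two-sided), for which 0.00794 is the smallest possible p. Likeness used log2 CPM with a prior count of 2 among genes of at least 1 CPM on average. The edgeR fit was tested on simulated data, with changes larger than those of the receptor genes and in genes with more counts than Esr2. That test does not show whether differences as small as those of the receptors would be found. Named are all receptor genes, the genes of each list with an adjusted p under 0.05 (or the 2 with the lowest p), and the study's TR4 targets. A further gene that meets this rule was left out of the text. Rxra, Rxrb, Rxrg, Fkbp5, Tsc22d3, Mrps25 and the tissue markers were named outside that rule. The members and lists were chosen with earlier results of these data known. Each library is 1 mouse.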

Additional observations from a re-analysis of the deposited data

Results flagged for a closer look

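In 3 groups of mice 1 value stood far from the other 4, among 18 groups examined (7 receptor genes and 2 ratios in each implant group), where chance gives about 0.9. The measure is the gap to the nearest mouse as a share of the group's range, with a limit of 0.71 for 5 mice. For Nr2c2, DHT replicate 2 was highest at 204 CPM, with a share of 0.797. For the log2 ratio of GR to MR transcripts, void replicate 5 was highest at -0.42 (share 0.737) and DHT replicate 6 lowest at -1.15 (share 0.737). Void replicate 5 had the lowest Nr3c2 level of all mice, 218 CPM, and DHT replicate 6 the lowest Nr3c1 level, 133 CPM.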

How the results depend on the processing

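No paired analysis was possible because the sample labels give no pairs or litters, although the study randomized littermates to implant. Replicate 5 of void and replicate 5 of DHT are different mice. Under each of the 17 alternatives (16 for Esr2, which a filter of at least 10 counts in every library removes), 0 receptor genes were called. With either marker list as a covariate 0 of all 17622 genes were called, so those settings are no check on the receptor genes. Under the other settings, calls over all genes went from 351 higher and 5 lower of 17858 (without void replicate 11) to 1221 higher and 224 lower of 20917 (DESeq2). The lowest adjusted p was 0.0756, for Pgr without DHT replicate 2. With microglial markers as a covariate, the log2 fold change turned positive for Esr1 (0.30), Esr2 (0.52) and Pgr (0.17). That of Nr3c2, near 0, turned negative with DESeq2 (-0.014), in edgeR with size factors from DESeq2 (-0.014) and with choroid plexus markers as a covariate (-0.090), and it ranged from -0.066 to 0.039 with 1 mouse left out. The cause was not tested. The direction held in all 17 alternatives for Nr2c2, Nr2c1 and Nr3c1, and the difference in the TR4 to TR2 ratio ranged from -0.19 to -0.14 with 1 mouse left out and was -0.16 with a pseudocount of 5. Counts of 6 to 21 per mouse limit Esr2.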
